A study of Homo sapiens with 72 samples.

Results

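The 9 genes described here, PER1, PER2, PER3, CRY1, CRY2, CLOCK, NR1D1, NR1D2 and DBP, are components or direct outputs of the circadian clock, and were taken by symbol from a count table of 19324 genes. All 9 were in the table and passed the filter on low counts that left 15470 genes to test. Polyadenylated RNA was sequenced in 72 libraries of HEK293 Flp-In T-REx cells, an embryonic kidney line with a site for targeted transgene insertion. The cells were unedited (WT) or knocked out for CSB (CSB_KO), a factor that starts repair where RNA polymerase II stalls at a DNA lesion, or for STK19 (STK19_KO1 and STK19_KO2), which has been placed in the same pathway. Each line was harvested untreated (0 h), 3 h after ultraviolet (UV) irradiation, and at 4 h and 20 h after irradiation, with either the solvent (DMSO) or VE-821 at 3 µM added. VE-821 blocks the checkpoint kinase ATR and is called ATRi here. Each of the 24 groups has 3 libraries.

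Several features limit these groups as a test of UV. Later harvests of unirradiated cells are not among the groups, so UV, time in culture and, from 4 h, the solvent cannot be told apart in a change from 0 h. The sources used here state neither the hour of day of a harvest nor any synchronisation of the cells, and the labels count the 4 h and 20 h either from UV (series design) or from the addition of DMSO or inhibitor (sample descriptions). CSB_KO is 1 line, so a trait of that line cannot be told from the knockout. Nothing in the labels says that replicates came from separate cultures, so a p-value covers only the spread among the libraries sequenced, which may be technical.

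As background, the clock is a loop of transcription and translation. CLOCK pairs with BMAL1, and the pair binds E-boxes and turns on the PER and CRY genes, whose proteins return to the nucleus and repress it. The same pair turns on NR1D1 and NR1D2, which encode the REV-ERB repressors of BMAL1, and DBP, a transcription factor that acts on D-boxes of output genes and of PER genes. PER1 and PER2 also respond within hours to signals outside the loop, through CREB and the glucocorticoid receptor, and CRY1 and CRY2, which descend from photolyases, and the PER proteins have been linked to the response to DNA damage. Most cell cultures that are not synchronised show little rhythm in the mean of all cells, since their cells are out of phase.

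Library totals ran from 36.5 to 212.9 M (mega) counts, with a median of 56.32 M. All members were well above the limit of detection: DBP had 75 to 1248 counts in a library, PER3 87 to 687 and NR1D2 2000 to 22178. In 5 libraries the counts lay far from both other replicates of the group: WT 0 h replicate 1, WT 3 h replicate 1, WT 4 h DMSO replicate 1, STK19_KO1 3 h replicate 3 and STK19_KO1 4 h ATRi replicate 1. Calls of members that changed when they were left out are given both ways. RNA of ERCC6, which encodes CSB, was at 6.4 to 15.6 CPM (counts scaled to the library total) in CSB_KO and at 13.5 to 44.8 CPM in WT. STK19 RNA was at 16.4 to 45.6 CPM in the STK19 knockouts and at 17.8 to 53.8 CPM in WT, so its level does not check those labels. Of 7 markers of HEK293 cells, VIM, KRT8, KRT18 and NEFL were at 60.5 to 1420 CPM and NEFM, PAX2 and LHX1 at 0.118 to 6.26 CPM. Of 9 markers of blood, fibroblast, kidney tubule, liver and endothelial cells, 8 were in the table. COL1A1 was at 3.08 to 18.2 CPM and the other 7 at 0 to 1.8 CPM.

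The promoters of the members that moved together 20 h after UV, PER1, PER2, CRY2 and NR1D1, are shown with that of NR1D2, which carries the most clock motifs of the set and changed little. Each window runs from 250 bases before to 50 bases after a transcription start of RefSeq (build GRCh38.p14), and the set holds 13 windows for the 9 members. They lie at chr17:8152355-8152654, minus strand (PER1), chr2:238288561-238288860, minus strand (PER2), chr11:45847225-45847524, plus strand (CRY2, the second of its windows), chr17:40100540-40100839, minus strand (NR1D1) and chr3:23945871-23946170, plus strand (NR1D2, the second of its windows). Each is printed 5′ to 3′ on the gene's strand. Capitals mark an E-box (CACGTG), a D-box (TTATGTAA, on either strand) or the core of a binding site of ROR and REV-ERB (TAGGTCA, on either strand).
PER1: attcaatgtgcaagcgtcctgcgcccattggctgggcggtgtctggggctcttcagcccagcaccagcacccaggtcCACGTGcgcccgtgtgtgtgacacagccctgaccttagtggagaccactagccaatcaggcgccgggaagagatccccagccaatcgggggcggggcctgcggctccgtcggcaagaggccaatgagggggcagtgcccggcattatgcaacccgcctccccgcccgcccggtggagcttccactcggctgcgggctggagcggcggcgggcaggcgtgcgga
PER2: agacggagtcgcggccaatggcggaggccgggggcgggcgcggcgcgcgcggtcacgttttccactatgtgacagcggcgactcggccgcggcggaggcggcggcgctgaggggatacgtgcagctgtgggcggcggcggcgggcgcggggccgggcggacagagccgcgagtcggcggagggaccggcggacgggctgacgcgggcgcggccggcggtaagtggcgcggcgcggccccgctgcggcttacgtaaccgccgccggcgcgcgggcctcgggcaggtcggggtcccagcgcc
CRY2: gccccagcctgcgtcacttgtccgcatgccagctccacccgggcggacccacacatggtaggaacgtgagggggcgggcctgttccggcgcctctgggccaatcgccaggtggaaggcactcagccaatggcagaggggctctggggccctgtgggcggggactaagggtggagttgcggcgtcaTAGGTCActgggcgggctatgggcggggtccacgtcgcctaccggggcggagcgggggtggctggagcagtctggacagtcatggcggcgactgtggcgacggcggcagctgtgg
NR1D1: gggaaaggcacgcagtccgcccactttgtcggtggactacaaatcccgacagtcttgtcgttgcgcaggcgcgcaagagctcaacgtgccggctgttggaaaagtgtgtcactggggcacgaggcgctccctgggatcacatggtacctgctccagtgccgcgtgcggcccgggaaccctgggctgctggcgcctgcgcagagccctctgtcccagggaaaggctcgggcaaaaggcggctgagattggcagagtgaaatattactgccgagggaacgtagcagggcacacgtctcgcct
NR1D2: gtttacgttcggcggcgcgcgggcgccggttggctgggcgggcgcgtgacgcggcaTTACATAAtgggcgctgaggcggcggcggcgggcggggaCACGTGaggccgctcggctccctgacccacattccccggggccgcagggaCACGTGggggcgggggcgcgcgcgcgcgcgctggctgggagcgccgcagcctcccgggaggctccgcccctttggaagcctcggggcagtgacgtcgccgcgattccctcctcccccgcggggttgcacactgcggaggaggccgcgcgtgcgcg

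PER1 has 1 E-box, starting 173 bases before the start, and NR1D2 has 2, starting 155 and 105 bases before it. Of 35116 windows of all genes, 7.26% hold that motif. A D-box is in a window of PER3 and of NR1D2, and in 0.886% of all windows. The ROR and REV-ERB core is in CRY2 and in 1.85% of all windows. The full CREB site (TGACGTCA) is in no member window and in 1.85% of all windows, and its core (TGACG) is in windows of PER2, CRY1, CRY2, NR1D2 and CLOCK and in 24.6% of all windows. PER2 and NR1D1, which rose with PER1 and CRY2, hold no E-box, D-box or ROR core in these letters in these windows. A match is a run of letters, not a measured site, and windows further from the start were not searched. Other spellings of these motifs were not searched either, such as the CACGTT and TTACGTAA in the printed PER2 window.

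Scaled per kilobase of exon (TPM), NR1D2 was the most abundant member in untreated WT cells, at 56.9 ± 3.13 TPM (SD, n = 3). CRY1 followed at 32.1 ± 1.75 TPM. PER1 (12.1 ± 1.02 TPM) and CLOCK (11.2 ± 1.25 TPM) came next, with overlapping libraries. CRY2 was at 5.96 ± 0.37, NR1D1 at 5.00 ± 0.665 and PER2 at 4.86 ± 0.434 TPM, and the libraries of NR1D1 and PER2 overlapped. DBP (2.99 ± 0.516 TPM) and PER3 (2.69 ± 0.134 TPM), also overlapping, were the lowest on this scale, near BMAL1, the partner of CLOCK, at 2.78 ± 0.125 TPM. The length used was the union of all annotated exons, which for DBP is 6.544 kb of a span of 7.35 kb. A shorter transcript in these cells would raise the TPM of DBP, so its rank is uncertain. The REV-ERB paralogs thus differed most: over the 4 untreated lines NR1D2 was at 55.6 to 89.8 TPM and NR1D1 at 5.00 to 6.78 TPM. All later levels are CPM after TMM scaling, which are shares of a library and serve only to compare 1 gene between groups. On that scale fewer cells with a transcript and less of it per cell cannot be told apart, nor can a change of total mRNA per cell be seen.

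**Figure D1:**
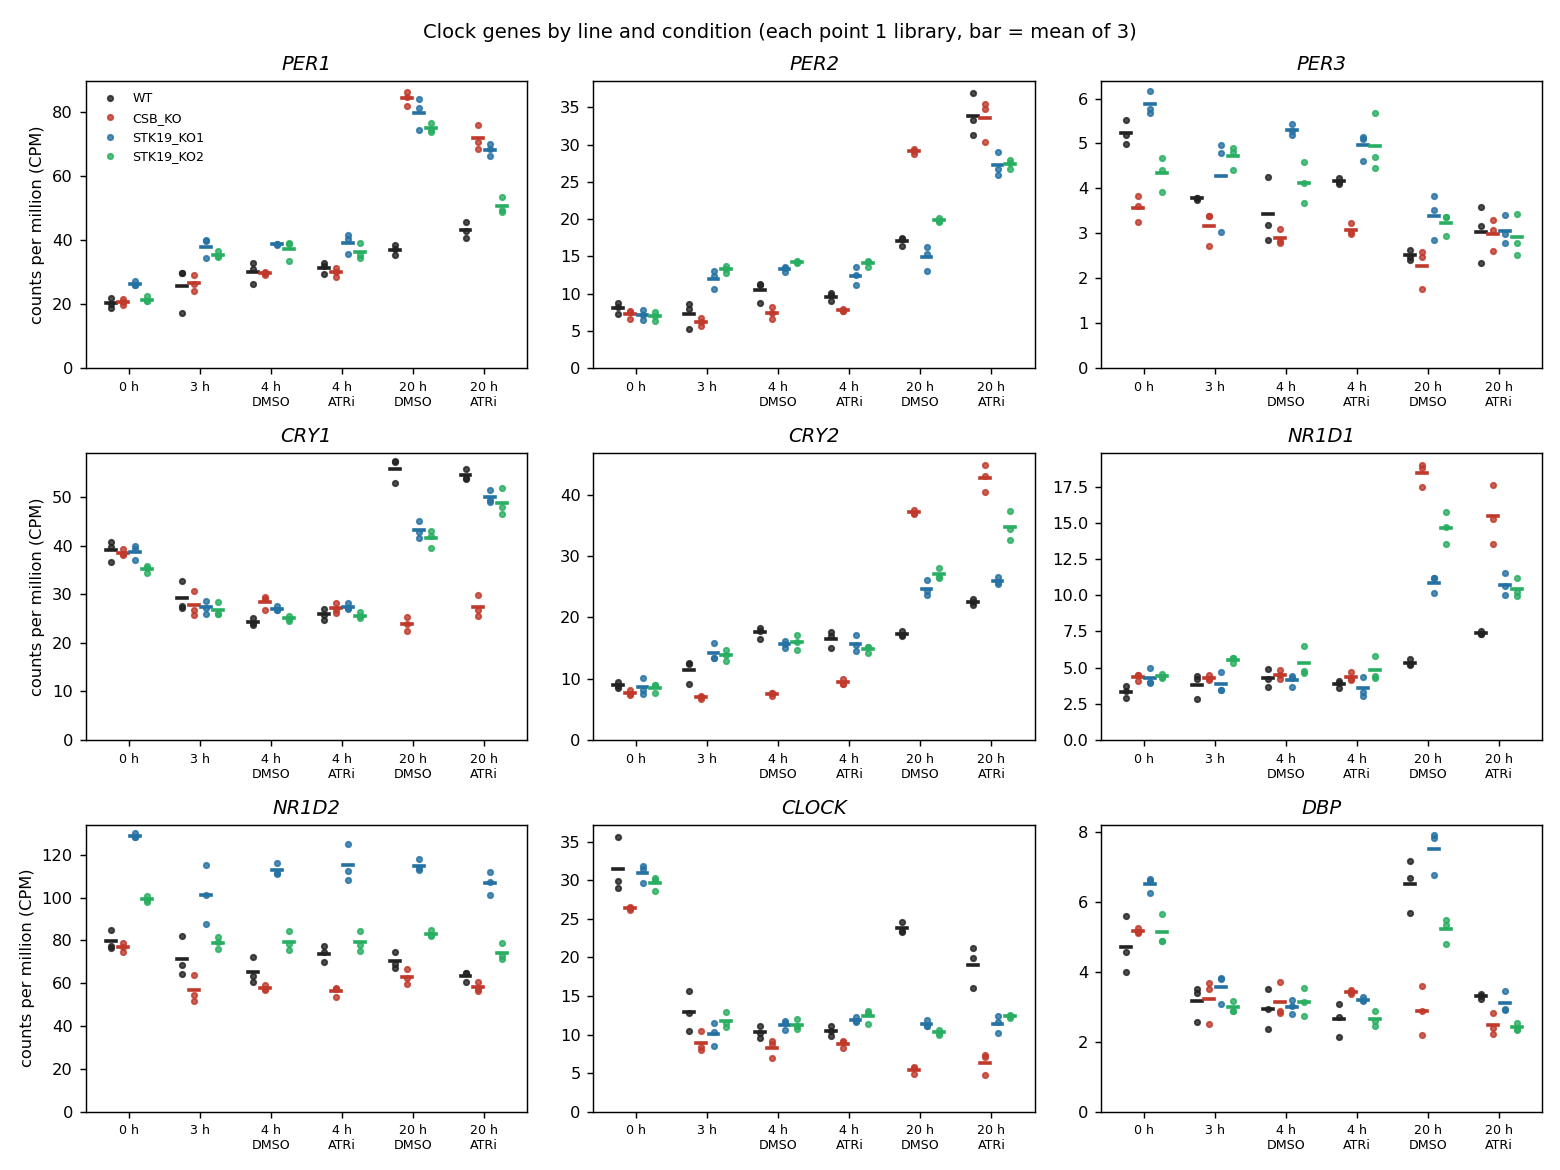
CPM of each of the 9 genes (vertical axis, from 0) in all 72 libraries by condition (horizontal axis); each point is 1 library, each bar the mean of the 3, and colours are the 4 lines. At 20 h in DMSO the PER1, PER2, CRY2 and NR1D1 points sit above those at 0 h in every line, and the CLOCK points sit below them.

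Before UV the lines differed in a few clock genes. In CSB_KO, 1 was higher and 2 were lower, beside 19.1% and 15.7% of all genes tested. In STK19_KO1, 4 were higher and 0 were lower, beside 29.5% and 19.2% of all genes tested. In STK19_KO2, 2 were higher and 1 was lower, beside 26.6% and 20.7% of all genes tested. In STK19_KO1 0 of the members had an unadjusted p under 0.05 in the lower direction and DESeq2 called 0 as lower. In either direction 3, 4 and 3 of the 9 members were called in CSB_KO, STK19_KO1 and STK19_KO2, beside 34.8%, 48.7% and 47.3% of all genes, so the counts do not stand above the background. The median log2 difference of the 9 members was -0.051, 0.17 and -0.074 in CSB_KO, STK19_KO1 and STK19_KO2, against -0.00087, 0.049 and 0.029 over all genes.

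NR1D2 gave the largest difference among the members. It was at 84.8, 76.5 and 77.4 CPM in WT and at 128, 128 and 130.2 CPM in STK19_KO1. In STK19_KO2 it was at 98.7, 101 and 98.0 CPM, again above all WT libraries. The log2 differences from WT were 0.70 ± 0.072 (SE; edgeR quasi-likelihood test, Benjamini-Hochberg adjusted p = 2.71e-12) and 0.32 ± 0.072 (adjusted p = 0.000179). In CSB_KO, with 78.7, 77.0 and 74.8 CPM, the difference was -0.051 ± 0.072 (adjusted p = 0.625).

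NR1D1 was higher in all 3 knockouts, by log2 differences of 0.38 ± 0.13, 0.36 ± 0.14 and 0.39 ± 0.14 (edgeR adjusted p = 0.0224, 0.0283 and 0.0144). All 3 calls share the WT libraries, at 2.87, 3.39 and 3.73 CPM, and all 3 were lost without WT replicate 1, the lowest of them and 1 of the libraries that stood apart (adjusted p = 0.138, 0.156 and 0.101). Single knockout libraries also decided them: the CSB_KO call was lost without CSB_KO replicate 1 or 2 (adjusted p = 0.0634 and 0.0697), and the STK19 calls without replicate 2 of STK19_KO1 (0.188) or of STK19_KO2 (0.0544). PER1 and DBP were higher in STK19_KO1, by 0.38 ± 0.099 (adjusted p = 0.00123) and 0.46 ± 0.14 (0.00368). PER3 was lower in CSB_KO, at 3.83, 3.60 and 3.25 CPM against 5.51, 4.98 and 5.19 CPM in WT, a log2 difference of -0.55 ± 0.14 (adjusted p = 0.00109). The calls of lower CRY2 in CSB_KO (-0.22 ± 0.087, adjusted p = 0.0433) and of lower CRY1 in STK19_KO2 (-0.15 ± 0.059, adjusted p = 0.0284) were lost when single libraries were left out. For CRY2 these were WT replicates 2 and 3 and CSB_KO replicates 1 and 3 (adjusted p = 0.0651, 0.204, 0.122 and 0.117). For CRY1 they were WT replicates 1 and 3 and STK19_KO2 replicate 3 (adjusted p = 0.136, 0.0821 and 0.0591). CLOCK in CSB_KO gave -0.25 ± 0.10 (adjusted p = 0.0521), and was called as lower without WT replicate 3 (adjusted p = 0.0336) and with DESeq2 (0.0426) or RLE size factors (0.0467).

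At 20 h after UV in DMSO the members had moved apart. PER1, PER2, CRY2 and NR1D1 rose in all 4 lines, while CLOCK, PER3 and NR1D2 fell in all 4. Repressor genes were in both sets, since PER3 and NR1D2 are repressor genes as well. In WT, 6 rose and 3 fell, beside 30% and 25.4% of all genes tested. In CSB_KO, 4 rose and 5 fell, beside 38.3% and 40.5% of all genes tested. In STK19_KO1, 5 rose and 3 fell, beside 32.1% and 37% of all genes tested. In STK19_KO2, 5 rose and 3 fell, beside 33.8% and 37.8% of all genes tested. The members' median log2 change was 0.52 (WT), -0.29 (CSB_KO), 0.20 (STK19_KO1) and 0.24 (STK19_KO2). Over all genes it was 0.047, -0.0092, -0.025 and -0.023. All 9 were called in WT and CSB_KO and 8 in each STK19 knockout, beside 55.4%, 78.9%, 69.1% and 71.6% of all genes in either direction, and in each line they split in both directions.

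PER1, a core repressor and an early target of outside signals, was at 18.7, 20.1 and 22.0 CPM in untreated WT libraries and at 35.3, 38.6 and 37.1 CPM at 20 h. In CSB_KO it went from 20.6, 21.6 and 19.6 to 84.7, 81.8 and 86.1 CPM. The STK19 knockouts reached 81.1, 83.9 and 74.2 CPM (STK19_KO1) and 73.6, 74.4 and 76.4 CPM (STK19_KO2), from 25.9, 25.9 and 27.3 and 20.8, 20.9 and 22.4 CPM. The libraries of 0 h and 20 h did not overlap in any line, and every knockout library at 20 h was above every WT library of that time. The order among the knockouts depends on the scale. In TPM CSB_KO (33.4 to 36.77) lay below STK19_KO1 (39.23 to 46.23) and STK19_KO2 (39.7 to 41.24) at 20 h. From 0 h to 20 h PER1 changed by a log2 value of 0.87 ± 0.098 (WT), 2.03 ± 0.098 (CSB_KO), 1.60 ± 0.097 (STK19_KO1) and 1.81 ± 0.097 (STK19_KO2; edgeR adjusted p = 3.64e-11, 8.44e-27, 7.27e-22 and 2.42e-24). The rise was 1.82-fold in WT and 4.08-fold in CSB_KO. The difference between the CSB_KO and WT changes was 1.16 ± 0.14 (adjusted p = 5.16e-11), beside 30.9% of all genes called with a more positive change in CSB_KO. The mean change of the STK19 knockouts differed from that in WT by 0.84 ± 0.12 (adjusted p = 1.95e-08; 22.8% of all genes).

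PER2, the partner of PER1 in the repressive complex, was at 8.71, 8.15 and 7.24 CPM in untreated WT libraries and at 16.3, 17.4 and 17.4 CPM at 20 h. In CSB_KO it went from 7.47, 7.66 and 6.62 to 29.1, 29.4 and 28.8 CPM. The STK19 knockouts reached 16.2, 15.4 and 13.0 CPM (STK19_KO1) and 19.6, 19.7 and 20.2 CPM (STK19_KO2), from 7.81, 6.43 and 7.18 and 6.34, 7.48 and 7.05 CPM. Again no library of 20 h overlapped with those of 0 h. In CPM, STK19_KO1 libraries at 20 h lay below all WT libraries, and those of CSB_KO and STK19_KO2 above them. In TPM the STK19_KO2 libraries (10.7 to 11.08) overlapped with those of WT (10.82 to 11.31), so that order depends on the scale. From 0 h to 20 h PER2 changed by a log2 value of 1.09 ± 0.10 (WT), 2.00 ± 0.10 (CSB_KO), 1.06 ± 0.10 (STK19_KO1) and 1.51 ± 0.10 (STK19_KO2; edgeR adjusted p = 8.31e-14, 1.19e-25, 1.51e-13 and 5.91e-20). The rise exceeded that in WT in CSB_KO, by 0.90 ± 0.14 (adjusted p = 1.6e-07). For the STK19 knockouts the difference was 0.19 ± 0.13 (adjusted p = 0.197) and did not pass the test, except with only the libraries of the groups compared (0.0251).

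CRY2, a repressor that binds CLOCK-BMAL1 with the PER proteins, was at 8.42, 8.77 and 9.45 CPM in untreated WT libraries and at 17.1, 16.9 and 17.8 CPM at 20 h. In CSB_KO it went from 7.42, 8.06 and 7.36 to 37.4, 37.1 and 36.9 CPM. The STK19 knockouts reached 26.1, 24.3 and 23.6 CPM (STK19_KO1) and 26.5, 26.4 and 28.1 CPM (STK19_KO2), from 7.50, 8.14 and 10.1 and 8.90, 8.90 and 7.68 CPM. Every library of 20 h was above those of 0 h in its line, and CSB_KO, whose libraries differed by under 1 CPM, was the highest in CPM. In TPM the CSB_KO libraries (17.09 to 18.35) overlapped with those of STK19_KO2 (15.92 to 17.11). From 0 h to 20 h CRY2 changed by a log2 value of 0.95 ± 0.085 (WT), 2.28 ± 0.085 (CSB_KO), 1.51 ± 0.085 (STK19_KO1) and 1.67 ± 0.084 (STK19_KO2; edgeR adjusted p = 1.15e-14, 3.76e-32, 2.57e-23 and 8.95e-26). CSB_KO gave a 4.85-fold rise. Its change exceeded that in WT by 1.32 ± 0.12 (adjusted p = 6.19e-15), and the mean change of the STK19 knockouts did so by 0.64 ± 0.10 (adjusted p = 4.54e-07).

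NR1D1, the gene of REV-ERB alpha, was at 2.87, 3.39 and 3.73 CPM in untreated WT libraries and at 5.17, 5.61 and 5.27 CPM at 20 h. In CSB_KO it went from 4.50, 4.47 and 4.07 to 19.0, 17.5 and 18.8 CPM. The STK19 knockouts reached 10.2, 11.2 and 11.2 CPM (STK19_KO1) and 13.5, 15.8 and 14.7 CPM (STK19_KO2), from 3.95, 4.94 and 4.02 and 4.36, 4.56 and 4.26 CPM. All knockout libraries at 20 h were above all WT libraries, with CSB_KO at the top in CPM. In TPM the means at 20 h were 19.65 in CSB_KO and 19.95 in STK19_KO2, so that rank depends on the scale. From 0 h to 20 h NR1D1 changed by a log2 value of 0.67 ± 0.13 (WT), 2.08 ± 0.13 (CSB_KO), 1.34 ± 0.13 (STK19_KO1) and 1.74 ± 0.13 (STK19_KO2; edgeR adjusted p = 2.16e-05, 3.36e-22, 7.62e-14 and 8.88e-19). The changes in the knockouts were larger than in WT by 1.41 ± 0.18 (CSB_KO; adjusted p = 1.01e-09) and 0.87 ± 0.16 (mean of STK19; 6.54e-06). THRA, which shares 263 exonic bases with NR1D1 on the opposite strand, 9.5% of the exons of NR1D1, gave log2 changes of -0.032, -0.29, -0.065 and -0.35 in the 4 lines, so it did not rise with NR1D1. The sources used here do not state whether the counting used strand.

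NR1D2, the paralog (REV-ERB beta), moved the other way and by little. Its log2 changes at 20 h were -0.18 ± 0.072, -0.29 ± 0.072, -0.16 ± 0.071 and -0.25 ± 0.071 in WT, CSB_KO, STK19_KO1 and STK19_KO2 (edgeR adjusted p = 0.03, 0.000314, 0.0362 and 0.00138). The calls in WT and STK19_KO1 rested on single libraries. In WT the call was lost without 0 h replicate 1 (adjusted p = 0.164), 20 h DMSO replicate 2 (0.11) or replicate 3 (0.0714). In STK19_KO1 it was lost without any 1 of the 3 libraries at 0 h (adjusted p = 0.0594, 0.0593 and 0.146), without 20 h DMSO replicate 2 or 3 (0.079 and 0.0928), and with RLE size factors (0.123).

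CLOCK, the activator of the loop and the longest member (119 kb), was at 35.7, 29.97 and 28.9 CPM in untreated WT libraries and at 24.6, 23.4 and 23.4 CPM at 20 h. In CSB_KO it went from 26.2, 26.5 and 26.5 to 4.83, 5.62 and 5.83 CPM. The STK19 knockouts reached 11.1, 11.1 and 11.9 CPM (STK19_KO1) and 10.2, 10.7 and 10 CPM (STK19_KO2), from 31.4, 31.8 and 29.7 and 30.3, 30.1 and 28.6 CPM. No library of 20 h overlapped with those of 0 h, and the 3 knockouts lay below WT. From 0 h to 20 h CLOCK changed by a log2 value of -0.41 ± 0.11 (WT), -2.27 ± 0.12 (CSB_KO), -1.45 ± 0.11 (STK19_KO1) and -1.53 ± 0.11 (STK19_KO2; edgeR adjusted p = 0.000884, 4.56e-25, 7.36e-18 and 6.94e-19). CSB_KO kept the least, a 0.207-fold level. The change differed from that in WT by -1.87 ± 0.16 in CSB_KO (adjusted p = 8.86e-16) and by -1.08 ± 0.13 in the STK19 knockouts on average (adjusted p = 2.63e-10). Beside these, 36.3% and 32.7% of all genes were called with a more negative change.

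Gene span goes with the change after UV in these data, so each member is set beside the median of all genes tested in its class of span. At 20 h genes over 100 kb had a median log2 change of -0.41 (WT), -1.21 (CSB_KO), -0.89 (STK19_KO1) and -0.99 (STK19_KO2). CLOCK was at the class median in WT and below it in the 3 knockouts. CRY1, of nearly the same span (102 kb), was above it in every line. PER2 (46.1 kb) and CRY2 (36.1 kb) rose in the class of 30 to 100 kb, whose medians were 0.036, -0.25, -0.10 and -0.091. NR1D2 (35.3 kb), in the same class, was slightly below those medians in all 4 lines, and PER3 (60.9 kb) was further below them. PER1 (16.0 kb) was above the medians of genes of 10 to 30 kb, 0.167, 0.431, 0.265 and 0.299, in every line. Genes under 10 kb had medians of 0.207, 0.73, 0.308 and 0.369. NR1D1 (7.80 kb) was above these in every line, and DBP (7.35 kb) was above in WT and below in the 3 knockouts. The part of span in any 1 gene's change was not tested.

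**Figure D2:**
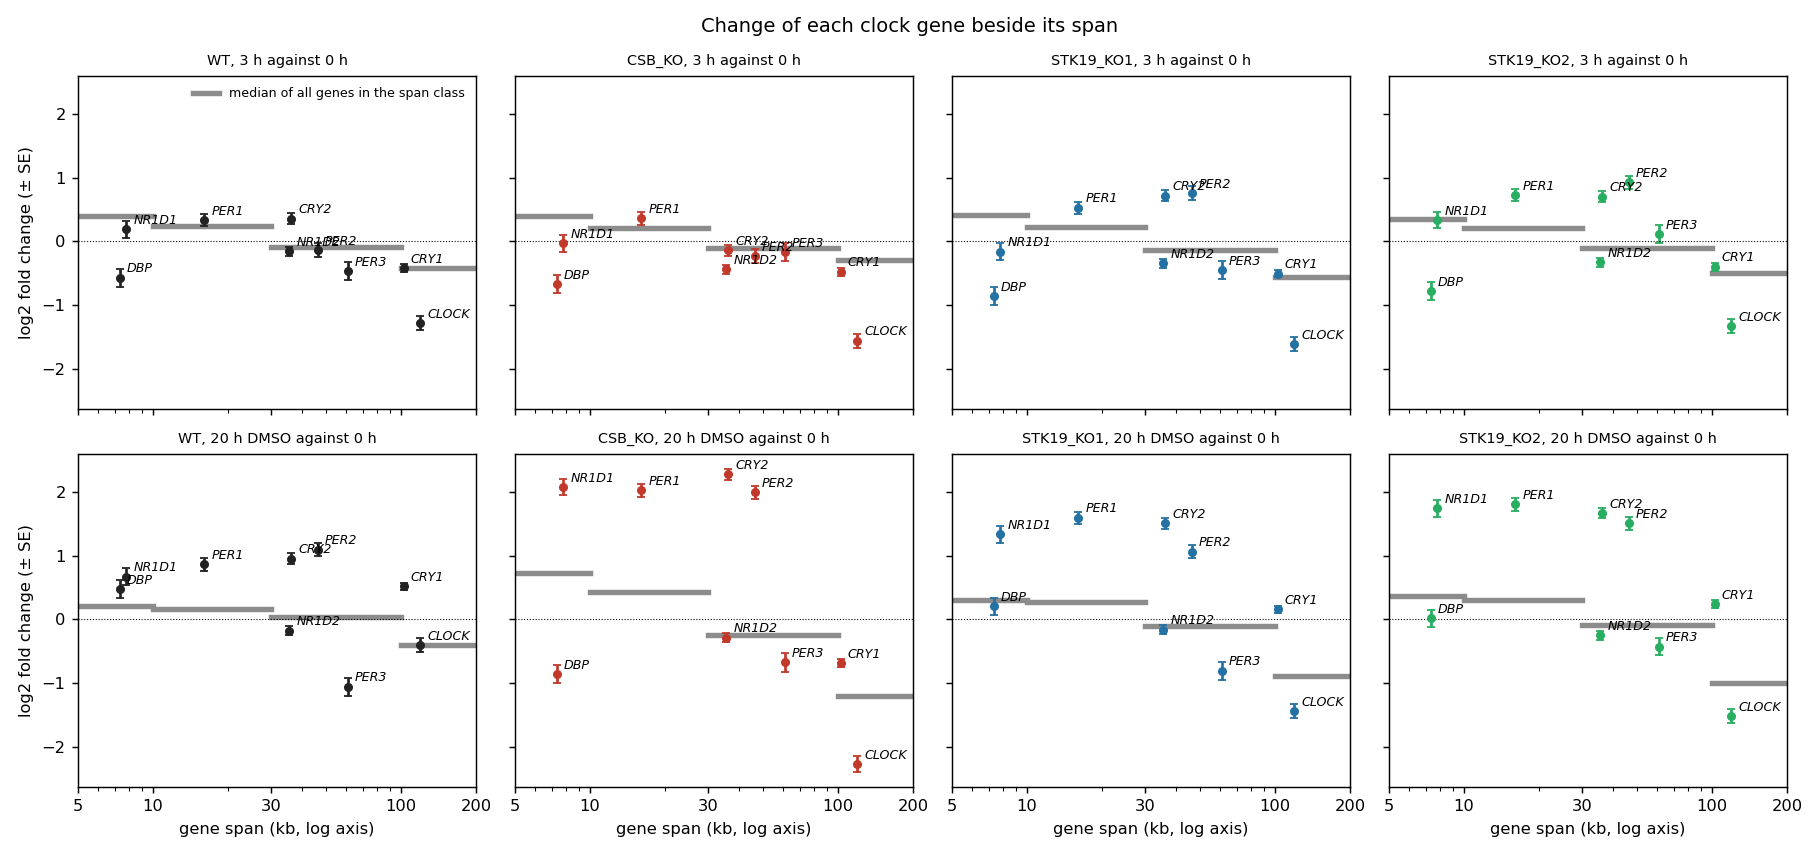
Log2 change (vertical axis, ± SE) of each clock gene against its span in kb (horizontal log axis) at 3 h and at 20 h in DMSO against 0 h, with 1 column of panels for each line; grey bars are medians of all genes tested in 4 classes of span, the outer classes drawn only to the edge of the axis. CLOCK lies below its bar at 3 h in every line, DBP below its bar at 3 h in every line, and PER1, PER2, CRY2 and NR1D1 above theirs at 20 h.

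PER3, the third PER gene, went against PER1 and PER2. It was at 5.51, 4.98 and 5.19 CPM in untreated WT and at 2.64, 2.42 and 2.48 CPM at 20 h, with no overlap. Its log2 changes were -1.06 ± 0.14, -0.67 ± 0.15, -0.81 ± 0.14 and -0.43 ± 0.14 in WT, CSB_KO, STK19_KO1 and STK19_KO2 (edgeR adjusted p = 4.3e-09, 5.38e-05, 7.87e-07 and 0.00511). In CSB_KO the change differed from that in WT by 0.39 ± 0.21, which did not pass (adjusted p = 0.0903) except with DESeq2 (0.0432), with RLE size factors (0.0437) or without CSB_KO 20 h DMSO replicate 2 (0.0154). The STK19 knockouts' mean change was less negative than that in WT by 0.44 ± 0.17 (adjusted p = 0.0247), a call lost without WT 0 h replicate 1 (adjusted p = 0.0595). In all, 868 bases of the exons of PER3 (10.7%) overlap UTS2 on the opposite strand, which was not analysed here.

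CRY1 and DBP took different directions in different lines. CRY1, the strongest repressor of the loop, rose in WT from 40.8, 36.6 and 39.6 to 57.4, 53.0 and 57.3 CPM, a log2 change of 0.52 ± 0.058 (edgeR adjusted p = 3.54e-11). In CSB_KO it fell from 39.3, 38.1 and 38.2 to 22.4, 25.3 and 23.9 CPM, by 0.69 ± 0.060 (log2; adjusted p = 1.13e-15). The STK19 knockouts were between these, with 0.16 ± 0.059 (adjusted p = 0.0164) and 0.24 ± 0.059 (adjusted p = 0.000226). The small rise in STK19_KO1 was lost without 0 h replicate 1 (adjusted p = 0.0872) or 20 h DMSO replicate 3 (0.0924). The CSB_KO change differed from that in WT by -1.21 ± 0.084 (adjusted p = 3.18e-19) and the mean STK19 change by -0.32 ± 0.072 (0.000132).

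DBP, the D-box factor, was at 3.99, 5.58 and 4.55 CPM in untreated WT and at 5.68, 6.68 and 7.17 CPM at 20 h. In CSB_KO it went from 5.12, 5.24 and 5.12 to 2.87, 2.18 and 3.59 CPM. The 20 h libraries were thus all above the untreated ones in WT and all below them in CSB_KO. The log2 changes were 0.48 ± 0.14 (edgeR adjusted p = 0.00224) and -0.86 ± 0.14 (adjusted p = 3.03e-07), and they differed by -1.34 ± 0.20 (adjusted p = 2.66e-08). STK19_KO1 and STK19_KO2 gave 0.20 ± 0.13 and 0.019 ± 0.13, which did not pass the test (adjusted p = 0.17 and 0.909). The mean STK19 change differed from that in WT by -0.36 ± 0.17 (adjusted p = 0.0554), and this was called without STK19_KO1 20 h DMSO replicate 2, STK19_KO2 20 h DMSO replicate 3, WT 0 h replicate 2 or WT 20 h DMSO replicate 1 (adjusted p = 0.0491, 0.0493, 0.0139 and 0.0386). DBP shares 661 bases of its exons (10.1%) with SPHK2 on the opposite strand, which fell in all 4 lines, by 0.42, 1.55, 0.55 and 0.85 (log2) in WT, CSB_KO, STK19_KO1 and STK19_KO2. The share of DBP counts that could come from SPHK2 was not tested.

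**Figure D3:**
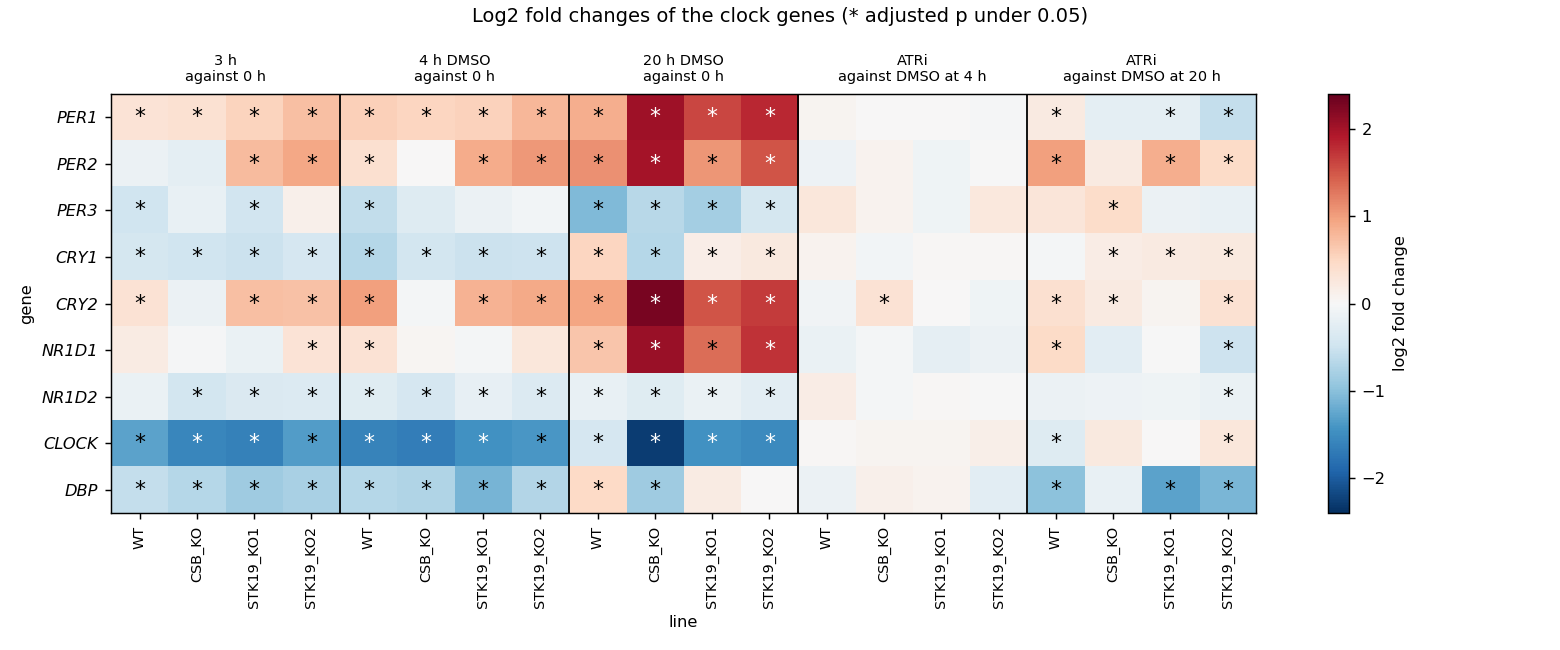
Log2 fold changes of the 9 genes (rows) in 5 comparisons for each of the 4 lines (columns); red is higher, blue lower, and an asterisk marks an adjusted p under 0.05. The 20 h block holds the strongest colours in CSB_KO, from -2.27 for CLOCK to 2.28 for CRY2, and the block of ATRi at 4 h holds 1 asterisk.

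At 3 h CLOCK, CRY1 and DBP fell and PER1 rose in all 4 lines. In WT, 2 rose and 4 fell, beside 33.6% and 28.8% of all genes tested. In CSB_KO, 1 rose and 4 fell, beside 32% and 29.3% of all genes tested. In STK19_KO1, 3 rose and 5 fell, beside 29.9% and 30.6% of all genes tested. In STK19_KO2, 4 rose and 4 fell, beside 29.1% and 28.5% of all genes tested. The members' median log2 change was -0.15, -0.23, -0.35 and 0.11 in WT, CSB_KO, STK19_KO1 and STK19_KO2, and 0.059, 0.060, 0.027 and 0.046 over all genes. In either direction 62.4%, 61.3%, 60.6% and 57.6% of all genes were called in the 4 lines. The called members were near these shares in WT and CSB_KO. In each STK19 knockout 8 of 9 were called. Of these, PER3 in STK19_KO1 and NR1D1 in STK19_KO2 were lost without single libraries, as given below. Whether the members stood above the shares was not tested.

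CLOCK gave the largest early change. It was at 15.7, 12.8 and 10.4 CPM at 3 h in WT and at 10.4, 7.99 and 8.42 CPM in CSB_KO. The STK19 knockouts were at 11.5, 10.3 and 8.53 CPM (STK19_KO1) and 12.9, 11.5 and 11.0 CPM (STK19_KO2). All were below every untreated library of their line. The log2 changes were -1.29 ± 0.11, -1.57 ± 0.11, -1.61 ± 0.11 and -1.33 ± 0.11 in the same order (edgeR adjusted p = 7.79e-16, 2.29e-18, 3.94e-19 and 2.61e-16), where genes over 100 kb had medians of -0.41, -0.30, -0.56 and -0.50. The differences between the changes in CSB_KO and in WT (-0.28 ± 0.16, adjusted p = 0.287) and between the STK19 mean and WT (-0.19 ± 0.13, adjusted p = 0.32) did not pass the test. CRY1 fell less, by 0.40 to 0.51 (log2), near the class medians.

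DBP is among the shortest members (7.35 kb) and still fell. Its 3 h libraries were at 2.56, 3.40 and 3.498 CPM in WT, where untreated ones were at 3.99, 5.58 and 4.55 CPM. In STK19_KO1 they were at 3.07, 3.81 and 3.80 CPM, from 6.64, 6.58 and 6.25 CPM. Both sets were lower with no overlap. The log2 changes were -0.57 ± 0.14, -0.68 ± 0.14, -0.86 ± 0.14 and -0.79 ± 0.14 (edgeR adjusted p = 3e-04, 3.72e-05, 3.31e-07 and 1.99e-06), while genes under 10 kb had medians of 0.40, 0.40, 0.41 and 0.36. SPHK2, which overlaps DBP on the opposite strand, gave -0.45, -0.29, -0.24 and -0.18 at 3 h in the same order of lines. The values in STK19_KO1 and STK19_KO2 did not pass (edgeR adjusted p = 0.0825 and 0.199). Its part in the DBP counts was not tested. NR1D1, whose span (7.80 kb) is like that of DBP, gave 0.19 ± 0.14, -0.027 ± 0.13, -0.16 ± 0.14 and 0.33 ± 0.13. Of these only STK19_KO2 passed (adjusted p = 0.0226), and it was lost without 0 h replicate 3 or 3 h replicate 2 or 3 (adjusted p = 0.0609, 0.056 and 0.0617). Without WT 3 h replicate 1, which stood apart, NR1D1 also rose in WT (0.35, adjusted p = 0.0221).

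PER1 was the member that rose early in every line. At 3 h it rose by 0.34 ± 0.098 (WT), 0.36 ± 0.099 (CSB_KO), 0.53 ± 0.098 (STK19_KO1) and 0.73 ± 0.097 (STK19_KO2; edgeR adjusted p = 0.00242, 0.00122, 4.39e-06 and 2.84e-09). Genes of its class of span, 10 to 30 kb, had medians of 0.246, 0.208, 0.229 and 0.215 in the same order of lines. In WT the 3 PER1 values at 3 h were 17.2, 29.6 and 29.8 CPM. Replicate 1, which stood apart, was thus below all untreated libraries and the others above them. The WT call was lost without replicate 2 (adjusted p = 0.0738) or 3 (0.0789), and the log2 change was 0.55 without replicate 1. With only the libraries of the groups compared, it did not pass in WT (adjusted p = 0.299). The changes in CSB_KO and in the STK19 mean differed from that in WT by 0.026 ± 0.14 and 0.29 ± 0.12, which did not pass the test (adjusted p = 0.945 and 0.0636). The STK19 difference passed with DESeq2 (adjusted p = 0.0499) and without any 1 of STK19_KO1 3 h replicate 1, STK19_KO2 0 h replicate 3, WT 0 h replicate 1 and WT 3 h replicates 2 and 3 (adjusted p = 0.0392, 0.049, 0.035, 0.00873 and 0.00701).

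PER2 rose early in the STK19 knockouts. At 3 h it was at 12.3, 13.1 and 10.7 CPM in STK19_KO1 and at 13.3, 12.7 and 13.7 CPM in STK19_KO2. In WT it was at 5.19, 7.94 and 8.55 CPM and in CSB_KO at 6.25, 6.67 and 5.70 CPM, so no library of the STK19 knockouts overlapped with either. The log2 changes were 0.76 ± 0.11 (edgeR adjusted p = 1.29e-08) and 0.93 ± 0.10 (adjusted p = 1.26e-11) in the STK19 knockouts, -0.14 ± 0.11 (adjusted p = 0.263) in WT and -0.23 ± 0.11 (adjusted p = 0.0627) in CSB_KO. The mean STK19 change exceeded that in WT by 0.98 ± 0.13 (adjusted p = 7.86e-08; 10.1% of all genes had a more positive change by this test). In CSB_KO the change differed from that in WT by -0.094 ± 0.15 (adjusted p = 0.763). Single libraries decided whether PER2 fell in the other lines. Without 3 h replicate 3 PER2 fell in WT (-0.28, adjusted p = 0.0345). In CSB_KO it fell without 0 h replicate 3 (-0.29, adjusted p = 0.0351) or 3 h replicate 2 (-0.29, adjusted p = 0.0476), and in the fit without the 5 libraries that stood apart (-0.24, adjusted p = 0.0168).

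CRY2 rose early in every line but CSB_KO. At 3 h it was at 9.15, 12.4 and 12.5 CPM in WT, and at 13.4, 15.8 and 13.4 and 14.7, 13.9 and 12.9 CPM in STK19_KO1 and STK19_KO2. The CSB_KO libraries, at 6.99, 7.12 and 6.69 CPM, were below all of these. The log2 changes were 0.35 ± 0.086, 0.72 ± 0.087 and 0.70 ± 0.085 (edgeR adjusted p = 0.000296, 1.9e-10 and 1.7e-10), and -0.14 ± 0.091 in CSB_KO (adjusted p = 0.178). The CSB_KO change was lower than that in WT by 0.50 ± 0.13 (adjusted p = 0.00476; 8.3% of all genes). The mean STK19 change was higher by 0.36 ± 0.11 (adjusted p = 0.00839), which was lost without WT 0 h replicate 3 (adjusted p = 0.0507) or WT 3 h replicate 1 (0.094). With only the libraries of the groups compared, the rise in WT (adjusted p = 0.122) and both differences from WT (adjusted p = 0.202 and 0.146) did not pass.

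PER3 and NR1D2 fell at 3 h in some of the lines. PER3 fell in WT (-0.47 ± 0.14, edgeR adjusted p = 0.00246) and in STK19_KO1 (-0.45 ± 0.14, adjusted p = 0.00386), and the latter call rested on STK19_KO1 replicate 3, which stood apart (-0.25, adjusted p = 0.13 without it). NR1D2 fell by 0.33 to 0.44 (log2) in the 3 knockouts. In WT it gave -0.15 ± 0.072 (adjusted p = 0.0563), and -0.27 (adjusted p = 0.00153) without 3 h replicate 1 and -0.18 (adjusted p = 0.0458) without 0 h replicate 2. The changes of NR1D2 in CSB_KO and in the STK19 mean differed from that in WT by -0.28 ± 0.10 and -0.18 ± 0.088 (adjusted p = 0.0684 and 0.117). The first passed with DESeq2 (adjusted p = 0.0483) and without CSB_KO 3 h replicate 1, WT 0 h replicate 1 or WT 3 h replicate 2 or 3 (0.0156, 0.032, 0.0431 and 0.0188), and the second without STK19_KO1 3 h replicate 1 or WT 3 h replicate 3 (0.031 and 0.0337). For PER3 the STK19 mean differed by 0.30 ± 0.17 (adjusted p = 0.194), and passed without STK19_KO1 3 h replicate 3 (0.0484).

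The 4 h libraries in DMSO gave a like set of calls against the same untreated libraries. In WT, 4 rose and 5 fell, beside 35% and 31.3% of all genes tested. In CSB_KO, 1 rose and 4 fell, beside 33.6% and 30.2% of all genes tested. In STK19_KO1, 3 rose and 4 fell, beside 27.9% and 30% of all genes tested. In STK19_KO2, 3 rose and 4 fell, beside 31.6% and 29.8% of all genes tested. In either direction 66.3%, 63.7%, 57.8% and 61.4% of all genes were called. PER1 rose in all 4 lines, by log2 changes of 0.52 to 0.79. CLOCK (-1.66 to -1.39), CRY1 (-0.68 to -0.44), DBP (-1.11 to -0.68) and NR1D2 (-0.41 to -0.19) fell in all 4. The NR1D2 call in STK19_KO1 was lost without 0 h replicate 3 or 4 h DMSO replicate 2 or 3 (edgeR adjusted p = 0.0858, 0.0575 and 0.0551) and with RLE size factors (0.0504). CRY2 in WT had by then reached 18.3, 16.4 and 17.9 CPM, a log2 change of 0.98 ± 0.085 (adjusted p = 1.93e-15). In CSB_KO it was at 7.12, 7.63 and 7.63 CPM, with -0.039 ± 0.090 (adjusted p = 0.726). PER2 rose in WT (0.39 ± 0.10, adjusted p = 0.00085) and in both STK19 knockouts (0.90 ± 0.11 and 1.03 ± 0.10), and in CSB_KO it gave 0.0064 ± 0.11 (adjusted p = 0.966). NR1D1 rose in WT (0.35 ± 0.14, adjusted p = 0.0198), a call lost without 0 h replicate 1, which stood apart (0.26, adjusted p = 0.127), or 4 h DMSO replicate 3 (0.23, adjusted p = 0.184). In STK19_KO2 it rose with DESeq2 (adjusted p = 0.0477) or without 4 h DMSO replicate 1 or 3 (0.0244 and 0.0414), where all libraries gave 0.27 ± 0.13 (adjusted p = 0.0654). PER3 in CSB_KO gave -0.30 ± 0.14 (adjusted p = 0.0622), and fell without 0 h replicate 3 (adjusted p = 0.0448) or without the 5 libraries that stood apart (0.0406). Whether the lines differed at 4 h was not tested.

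Between 4 h and 20 h in DMSO, both irradiated groups, most of the changed members rose. In WT, 6 rose and 1 fell, beside 34.1% and 35.5% of all genes tested. In CSB_KO, 4 rose and 3 fell, beside 34.6% and 37.2% of all genes tested. In STK19_KO1, 5 rose and 1 fell, beside 32.3% and 33.4% of all genes tested. In STK19_KO2, 6 rose and 1 fell, beside 31.6% and 34.9% of all genes tested. In either direction 69.5%, 71.7%, 65.6% and 66.6% of all genes were called. CLOCK climbed in WT from 11.1, 9.59 and 10.3 to 24.6, 23.4 and 23.4 CPM, a log2 change of 1.2 ± 0.11 (edgeR adjusted p = 1.11e-14). In CSB_KO it dropped further, from 9.19, 6.998 and 8.79 to 4.83, 5.62 and 5.83 CPM (-0.62 ± 0.13, adjusted p = 1.83e-05). In STK19_KO1 and STK19_KO2 the changes were 0.0055 ± 0.11 and -0.13 ± 0.11 (adjusted p = 0.972 and 0.293). CRY2 showed the opposite order: -0.023 ± 0.081 in WT (adjusted p = 0.812) and 2.32 ± 0.088 in CSB_KO (adjusted p = 3.2e-31). DBP rose in WT, STK19_KO1 and STK19_KO2, by 1.16 ± 0.14, 1.31 ± 0.14 and 0.72 ± 0.14, and gave -0.13 ± 0.15 in CSB_KO (adjusted p = 0.434). The differences between lines in this step were not tested.

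Several of the smaller calls between 4 h and 20 h rested on single libraries. NR1D1 rose in WT by 0.32 ± 0.13 (log2; edgeR adjusted p = 0.0241), and the call was lost without 4 h DMSO replicate 1, which stood apart (0.23, adjusted p = 0.149), and without all 5 libraries that did (0.24, adjusted p = 0.0739). It was also lost without 4 h DMSO replicate 2 or 20 h DMSO replicate 2 or 3 (adjusted p = 0.0517, 0.0828 and 0.0525). PER1 in WT (0.30 ± 0.096, adjusted p = 0.00451) was lost without the same 4 h DMSO replicate 1 (0.21, adjusted p = 0.0632). PER3 fell in all 4 lines, by 0.35 to 0.66 (log2). Its call in WT was lost without 4 h DMSO replicate 3 (adjusted p = 0.128), and that in STK19_KO2 without 20 h DMSO replicate 3 or 4 h DMSO replicate 2 (0.0995 and 0.122). In CSB_KO the PER3 call was lost without 20 h DMSO replicate 2 or 4 h DMSO replicate 1 or 3 (adjusted p = 0.362, 0.0502 and 0.0976), with DESeq2 (0.0881) and with RLE size factors (0.09). NR1D2, not called in any line, rose without the 5 libraries in WT (0.20, adjusted p = 0.00272; adjusted p = 0.0367 without 4 h DMSO replicate 1 alone) and CSB_KO (0.13, adjusted p = 0.0297), and in CSB_KO also with DESeq2 (adjusted p = 0.013). PER2 in STK19_KO1 (0.16 ± 0.10, adjusted p = 0.148) rose without them too (0.20, adjusted p = 0.0217), and without 20 h DMSO replicate 3 (adjusted p = 0.0382).

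At 4 h the inhibitor gave few calls, among the members as among all genes. In WT, STK19_KO1 and STK19_KO2 the edgeR test called none of the 9, beside 2.66%, 0.905% and 0.22% of all genes. These 3 lines had 1, 0 and 0 members higher and 0, 0 and 0 lower at an unadjusted p under 0.05, and DESeq2 called 0, 0 and 0 as higher and 0, 0 and 0 as lower. In CSB_KO, where 2.97% of all genes were called, edgeR called 1 member as higher, beside 2.7% of all genes. That gene was CRY2, at 9.18, 9.89 and 9.19 CPM in ATRi and 7.12, 7.63 and 7.63 CPM in DMSO. The groups did not overlap, and the log2 difference was 0.34 ± 0.090 (edgeR adjusted p = 0.0175). The call was lost without ATRi replicate 2 (adjusted p = 0.128) or DMSO replicate 1 (adjusted p = 0.147). Without the 5 libraries that stood apart NR1D2 was also higher in WT (0.25, adjusted p = 0.00321). Its difference between CSB_KO and WT was then -0.29 (adjusted p = 0.0135), against -0.21 ± 0.10 (adjusted p = 0.354) with them.

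At 20 h the inhibitor moved DBP and PER2 in opposite directions in every line but CSB_KO. In WT, 4 rose and 2 fell, beside 30.2% and 33.7% of all genes tested. In CSB_KO, 3 rose and 0 fell, beside 14.1% and 17.5% of all genes tested. In STK19_KO1, 2 rose and 2 fell, beside 31.5% and 30.1% of all genes tested. In STK19_KO2, 4 rose and 4 fell, beside 30.5% and 27.7% of all genes tested. The members' median log2 difference was 0.22, 0.19, -0.015 and -0.16, against -0.034, 0.013, 0.018 and 0.025 over all genes. In either direction 63.9%, 31.5%, 61.5% and 58.2% of all genes were called, beside 6, 3, 4 and 8 of the 9 members, so the counts do not stand above the background in WT, CSB_KO and STK19_KO1. In CSB_KO 2 members were lower at an unadjusted p under 0.05, and DESeq2 called 1 as lower.

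DBP was at 3.22, 3.35 and 3.31 CPM in ATRi and 5.68, 6.68 and 7.17 CPM in DMSO in WT. STK19_KO1 had 2.92, 3.44 and 2.91 against 6.77, 7.91 and 7.82 CPM, and STK19_KO2 2.34, 2.52 and 2.38 against 5.34, 4.79 and 5.49 CPM. ATRi libraries were below all DMSO libraries in these 3 lines. In CSB_KO, where DBP was already low in DMSO, the values were 2.23, 2.83 and 2.38 against 2.87, 2.18 and 3.59 CPM and overlapped. The log2 differences were -0.99 ± 0.14, -1.28 ± 0.14 and -1.10 ± 0.14 (edgeR adjusted p = 1.05e-08, 3.64e-12 and 1.69e-09), and -0.17 ± 0.15 in CSB_KO (adjusted p = 0.417). The effect in CSB_KO differed from that in WT by 0.82 ± 0.21 (adjusted p = 0.000687; 24.7% of all genes had a more positive change by this test). For the STK19 mean the difference was -0.20 ± 0.17 (adjusted p = 0.373). SPHK2, on the opposite strand, changed by -0.40, -0.91 and -0.71 in WT and the STK19 knockouts and by 0.22 in CSB_KO, and its part in the DBP counts was not tested.

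PER2 was at 31.2, 37.0 and 33.3 CPM in ATRi against 16.3, 17.4 and 17.4 CPM in DMSO in WT. STK19_KO1 had 28.98, 26.7 and 25.9 against 16.2, 15.4 and 13.0 CPM, and STK19_KO2 26.8, 27.5 and 27.9 against 19.6, 19.7 and 20.2 CPM. In these lines ATRi libraries were above all DMSO libraries, with log2 differences of 0.99 ± 0.097, 0.87 ± 0.096 and 0.47 ± 0.096 (edgeR adjusted p = 1.9e-13, 1.41e-11 and 3.22e-05). In WT this came to 1.98-fold. CSB_KO, at 30.4, 35.4 and 34.8 against 29.1, 29.4 and 28.8 CPM, gave 0.21 ± 0.096 (adjusted p = 0.0952), and 0.28 (adjusted p = 0.0385) without ATRi replicate 1. The effect in CSB_KO was smaller than in WT by 0.78 ± 0.14 (adjusted p = 2.25e-06; 26.9% of all genes). The STK19 mean was smaller by 0.32 ± 0.12 (adjusted p = 0.0247), a call lost without STK19_KO1 DMSO replicate 1 (adjusted p = 0.0553), WT ATRi replicate 2 (0.109) or WT DMSO replicate 1 (0.0635). In ATRi the 4 lines thus lay closer together (25.9 to 37.0 CPM over all libraries) than in DMSO (13.0 to 29.4 CPM).

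**Figure D4:**
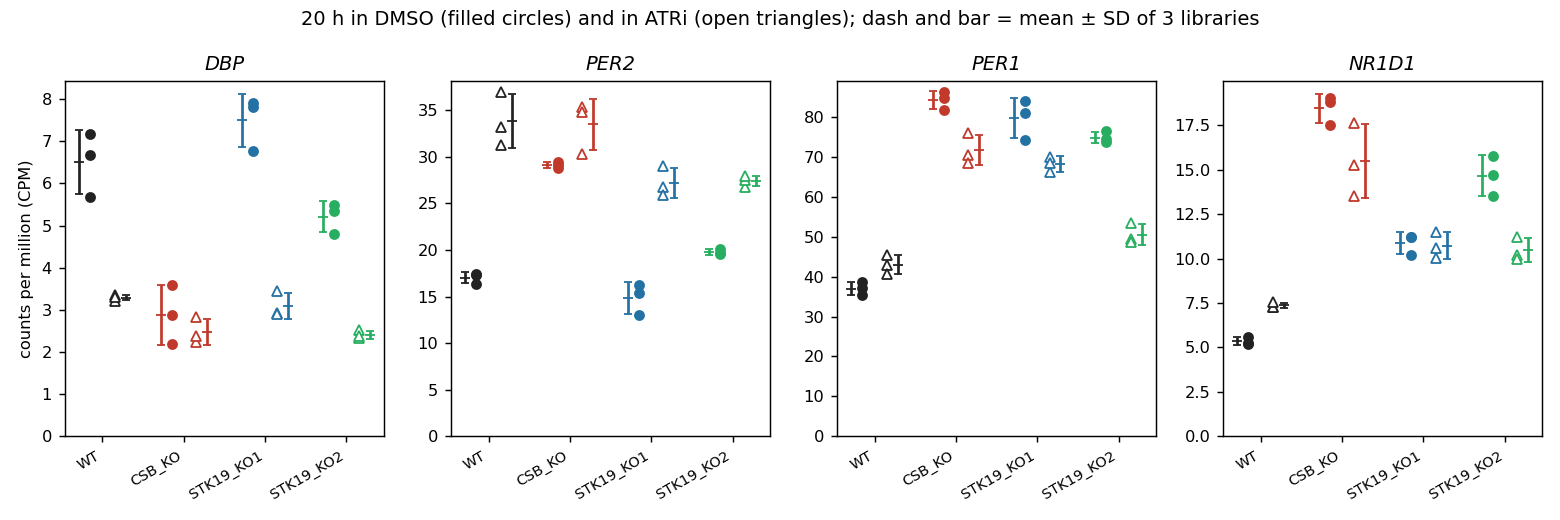
CPM (vertical axis, from 0) of DBP, PER2, PER1 and NR1D1 at 20 h in DMSO (filled circles) and ATRi (open triangles) by line; each point is 1 library, and the dash and bar beside it are the mean ± SD of 3. DBP falls and PER2 rises in WT and both STK19 knockouts, while PER1 and NR1D1 rise slightly in WT and fall in STK19_KO2.

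For PER1 and NR1D1 the inhibitor acted in opposite directions in WT and STK19_KO2. PER1 rose in WT from 35.3, 38.6 and 37.1 to 42.9, 45.5 and 40.7 CPM (0.22 ± 0.095, edgeR adjusted p = 0.0431), a call lost without any 1 of 5 of the 6 libraries (adjusted p = 0.0519 to 0.176; ATRi replicates 1 and 2 and all DMSO replicates). In STK19_KO2 it fell from 73.6, 74.4 and 76.4 to 53.5, 49.5 and 48.7 CPM (-0.57 ± 0.094, adjusted p = 5.84e-07). In STK19_KO1 the call of a fall (-0.23 ± 0.092, adjusted p = 0.0304) was lost with RLE size factors (adjusted p = 0.0601) and without ATRi replicate 1 or 3 or DMSO replicate 1 or 2 (adjusted p = 0.0923, 0.0557, 0.0765 and 0.111). CSB_KO gave -0.23 ± 0.093 (adjusted p = 0.0524), which passed with RLE size factors (0.0498) and without ATRi replicate 2 (0.0435).

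NR1D1 rose in WT from 5.17, 5.61 and 5.27 to 7.29, 7.29 and 7.54 CPM, a log2 difference of 0.46 ± 0.13 (edgeR adjusted p = 0.00128). In STK19_KO2 it fell from 13.5, 15.8 and 14.7 to 10.2, 9.96 and 11.2 CPM, a difference of -0.49 ± 0.12 (adjusted p = 0.000389). STK19_KO1 gave -0.015 ± 0.12 (adjusted p = 0.924), and the difference between the 2 STK19 lines was not tested. In CSB_KO the value was -0.25 ± 0.12 (adjusted p = 0.112), and -0.36 (adjusted p = 0.0384) without ATRi replicate 2. The effects differed from that in WT for PER1 by -0.45 ± 0.13 in CSB_KO and -0.61 ± 0.12 in the STK19 mean (adjusted p = 0.00393 and 1.8e-05). For NR1D1 they differed by -0.71 ± 0.18 and -0.72 ± 0.15 (adjusted p = 0.000516 and 0.000122). THRA fell in the same comparison in all 4 lines, by 0.37 to 0.96 (log2).

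CRY2, CRY1, CLOCK, PER3 and NR1D2 were each called in 1 or more lines at 20 h in ATRi. CRY2 was higher in WT (0.38 ± 0.081, edgeR adjusted p = 4.66e-05) and STK19_KO2 (0.36 ± 0.079, adjusted p = 7.2e-05). Its call in CSB_KO (0.21 ± 0.079, adjusted p = 0.0371) was lost without ATRi replicate 2 or 3 or any DMSO replicate (adjusted p = 0.0569 to 0.156). CRY1 was higher in STK19_KO1 (0.21 ± 0.058) and STK19_KO2 (0.23 ± 0.058; adjusted p = 0.00132 and 0.000469). In CSB_KO the CRY1 call (0.19 ± 0.061, adjusted p = 0.0149) was lost without replicate 1 of ATRi or of DMSO (adjusted p = 0.139 and 0.0955). CLOCK fell in WT (-0.31 ± 0.11, adjusted p = 0.00892), with 16.1, 19.9 and 21.2 CPM in ATRi, and not without the lowest of these, replicate 1 (adjusted p = 0.103). Its call in STK19_KO2 (0.26 ± 0.11, adjusted p = 0.0389) was lost without any ATRi replicate and without DMSO replicate 1 or 3 (adjusted p = 0.0561 to 0.0987). The calls of PER3 in CSB_KO (0.43 ± 0.15, adjusted p = 0.0241) and of NR1D2 in STK19_KO2 (-0.16 ± 0.072, adjusted p = 0.0483) were lost in the same way. For PER3 the libraries were ATRi replicates 2 and 3 and DMSO replicate 2 (adjusted p = 0.144, 0.0553 and 0.278), and for NR1D2 ATRi replicates 1 and 3 and every DMSO replicate (0.0659 to 0.153). In WT PER3 (0.29 ± 0.15, adjusted p = 0.0835) was higher without ATRi replicate 1 (adjusted p = 0.0161). NR1D2 in WT (-0.15 ± 0.072, adjusted p = 0.0725) was lower without DMSO replicate 2 (adjusted p = 0.0399) or the 5 libraries that stood apart (0.0213). CLOCK in CSB_KO (0.23 ± 0.13, adjusted p = 0.171) was higher without ATRi replicate 3 (adjusted p = 0.0144). Those 5 libraries are in none of these 20 h groups. Without them PER1 and PER2 in CSB_KO were also called (0.00134 and 0.0125).

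A list of 20 further clock genes, written with earlier results of these data known, holds the partner and paralogs of CLOCK and BMAL1, further repressors, ROR activators, D-box factors, kinases and ubiquitin ligase subunits. Of these, 17 were tested. At 3 h most fell, and TIMELESS, which links the clock to replication checkpoints, was the 1 gene that rose in all 4 lines. Counted as rising and falling, the list gave 3 and 11 (WT), 1 and 13 (CSB_KO), 3 and 12 (STK19_KO1), 4 and 12 (STK19_KO2). Beside these, 33.6%, 32%, 29.9% and 29.1% of all genes rose and 28.8%, 29.3%, 30.6% and 28.5% fell. The list's median log2 change was -0.53, -0.69, -0.69 and -0.52, against 0.059, 0.060, 0.027 and 0.046 over all genes. The activators fell with CLOCK: BMAL1 by 1.19 in WT (log2; edgeR adjusted p = 3.04e-12), its paralog BMAL2 by 0.58 and the CLOCK paralog NPAS2 by 0.88, and all 3 fell in all 4 lines. RORA, an activator of BMAL1, fell by 1.56 to 2.13 (log2), and the D-box factor TEF, like DBP, by 0.50 to 0.82. The fall was not limited to activators, since 11 genes of the list fell in all 4 lines. Among them were the repressors BHLHE40 and BHLHE41, and also BTRC, CSNK1E, FBXW11 and GSK3B. The genes of this list were not set beside their classes of span. At 3 h genes over 100 kb had medians of -0.41, -0.30, -0.56 and -0.50 in WT, CSB_KO, STK19_KO1 and STK19_KO2. The part of span in the falls of the list was not tested.

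At 20 h the list held genes of both directions. Rising and falling genes numbered 7 and 5 (WT), 8 and 9 (CSB_KO), 7 and 8 (STK19_KO1), 8 and 7 (STK19_KO2). Of all genes 30%, 38.3%, 32.1% and 33.8% rose and 25.4%, 40.5%, 37% and 37.8% fell in these lines. Medians were 0.028, -0.79, -0.082 and 0.079, against 0.047, -0.0092, -0.025 and -0.023 over all genes. BMAL1 had returned above its untreated level in WT (0.42 ± 0.12, edgeR adjusted p = 0.00198) and was lower in CSB_KO (-0.79 ± 0.12, adjusted p = 6.32e-08), the same signs as CRY1 and DBP in these lines. BMAL2 and NPAS2 were still lower than at 0 h in all 4 lines. Their WT means were 39.84 and 3.056 CPM at 20 h, against 54.03 and 6.309 CPM at 0 h. NFIL3, a repressor at D-boxes, rose in all 4 lines, by 0.93 to 1.26. BTRC and FBXW11, subunits of the ligase that targets PER proteins, fell in all 4, with log2 changes of -3.22 and -2.24 in CSB_KO. Genes over 100 kb had a median of -1.21 in CSB_KO, and the part of span in these falls was not tested. CSNK1D, the kinase of PER proteins, rose in all 4 (0.38 to 0.80).

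In ATRi at 20 h the counts of higher and lower genes among the 17 were 7 and 8 (WT), 4 and 6 (CSB_KO), 6 and 8 (STK19_KO1), 5 and 6 (STK19_KO2). Of all genes 30.2%, 14.1%, 31.5% and 30.5% were higher and 33.7%, 17.5%, 30.1% and 27.7% lower. The medians of the 17 were -0.28, -0.0091, -0.052 and -0.013, against -0.034, 0.013, 0.018 and 0.025 over all genes. The factors that share the D-box with DBP did not move as one. TEF fell in all 4 lines (-0.89 to -0.31), while HLF (0.50 to 1.31) and the repressor NFIL3 (0.53 to 1.05) rose in all 4 by the edgeR test. At 4 h in ATRi GSK3B, a kinase of clock proteins, and FBXW11 were higher in WT, and are named here after their values were seen.

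Since PER1 and PER2 also answer to CREB and the glucocorticoid receptor, 2 lists of genes were counted beside them. Both lists were written with earlier results of these data known. The list of 8 for CREB holds early genes taken as responsive to it and CRTC1, which encodes a coactivator of CREB. The other list holds 6 genes known to respond to glucocorticoid. At 20 h in DMSO the number of the 8 that rose was 7 (WT), 6 (CSB_KO), 6 (STK19_KO1) and 7 (STK19_KO2), beside 30%, 38.3%, 32.1% and 33.8% of all genes. Their median log2 change was 0.56, 1.31, 0.81 and 1.23, against 0.047, -0.0092, -0.025 and -0.023 over all genes. The genes of both lists were not set beside their classes of span. At 20 h genes under 10 kb had medians of 0.207, 0.73, 0.308 and 0.369 in the same order of lines. The part of span in the changes of the lists was not tested. FOS, NR4A1, NR4A2, NR4A3 and SIK1 rose in all 4 lines, and are named here because of that result. In CSB_KO their log2 changes reached 3.01 for FOS and 2.78 for SIK1, against 0.95 and 0.39 in WT. At 3 h 4, 4, 5 and 6 of the 8 rose in the same order of lines, beside 33.6%, 32%, 29.9% and 29.1% of all genes. Of the 6 glucocorticoid genes 3, 2, 3 and 3 rose at 20 h and 1, 4, 2 and 2 fell, where 25.4%, 40.5%, 37% and 37.8% of all genes fell, with medians of 0.32, -0.29, 0.11 and 0.24. SGK1 (1.69 to 3.93) and TSC22D3 (0.30 to 1.09) rose and ZBTB16 (-2.28 to -0.88) fell in all 4 lines, and are likewise named after their values were seen. The part of either signal in the rise of PER1 and PER2 was not tested.

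Over the 24 groups, after the mean of each line was removed from its log2 CPM, PER1, PER2, CRY2 and NR1D1 followed each other most closely. Pearson's r was 0.937 between PER1 and CRY2, 0.934 between PER1 and NR1D1, 0.925 between PER2 and CRY2, and 0.875 between PER1 and PER2. CLOCK went with NR1D2 (0.721) and DBP (0.665), and against PER1 (-0.631). PER3 went against PER1 (-0.741), and CRY1 and CRY2 were hardly related (0.151). These values describe the groups, which share untreated, DMSO and line libraries, and carry no test.

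By the same measure, over 9946 genes with a mean log2 CPM of at least 3, the 3 genes outside the set most like PER1 were LSR (0.975), DTX3 (0.973) and MICB (0.973). For PER2 they were ZBTB17 (0.975), ZNF350 (0.97) and ZNF490 (0.967), for CRY2 FBXL12 (0.977), ZNF614 (0.976) and KCTD5 (0.973) and for NR1D1 DEDD2 (0.981), MFAP1 (0.974) and DPF2 (0.97). CLOCK was most like FNDC3B (0.989), PARP8 (0.986) and EXT1 (0.984), and CRY1 like ABI1 (0.98), NIPAL3 (0.978) and NDC80 (0.974). The closest matches of DBP, MINK1 (0.928), KDM4A (0.925) and PARD6G (0.923), of PER3, HS6ST3 (0.887), CDKAL1 (0.885) and SBF2 (0.885), and of NR1D2, TMEM248 (0.895), NUAK1 (0.884) and MECOM (0.882), were looser. None of these genes is in the lists of clock genes.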

How the data were processed

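The data were 72 polyA RNA-seq libraries (24 groups of 3) prepared with the NEBNext Ultra II Directional kit, per the labels' protocols. The authors deposited a table of whole numbers per gene, treated here as estimated counts (the expected counts of RSEM, rounded), since the submitters' processing notes name STAR, RSEM and deepTools 3.5.1 with build GRCh38. The versions of STAR and RSEM, the annotation release and the strand setting of the counting are not given in the sources used here. The 9 members, the further gene lists and the tests were chosen with earlier results of these data known.

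The deposited counts were tested with edgeR 4.0.16 (R 4.3.3, limma 3.58.1) by its quasi-likelihood test, with 1 coefficient for each of the 24 groups and TMM scaling. Genes were kept by filterByExpr (minimum count 10, minimum total 15), which left 15470 of 19324, and p-values were adjusted over them by Benjamini-Hochberg, with a threshold of 0.05. The standard error is the log2 change divided by the square root of its F value. There were 27 contrasts of 2 groups and 8 of changes between lines. The scripts were tested on simulated counts with 200 changed genes.

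All 9 members are named. A further clock gene may be named where it was called with the same sign in all 4 lines of a comparison or had an absolute log2 change of at least 1 in any line, and exceptions are stated. Some genes of that list are not reported here by name. The most alike genes are the 3 with the highest Pearson correlation over 24 group means. Alternatives were DESeq2 1.42.0, RLE size factors, other filters, only the libraries compared, the replicate number as a block, and leaving out libraries. A library was taken to stand apart where its counts differed from both other replicates by a chi-square above 20 per gene. Coordinates and promoter sequences are from RefSeq GRCh38.p14 and spans and exon lengths from the reference annotation of GRCh38.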

Additional observations from a re-analysis of the deposited data

Results flagged for a closer look

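A difference between lines in the same contrast was found by the edgeR interaction test for 29 of 72 member values, and each is given here as the knockout's log2 change minus that in WT. At 3 h the test called 1 member for CSB_KO and 2 for the STK19 mean, beside 9.78% and 27.2% of all genes. At 20 h in DMSO it called 7 and 6, beside 67.2% and 55.4%, and for ATRi at 20 h 6 and 6, beside 51.6% and 40.9%. For ATRi at 4 h it called 1 for CSB_KO, beside 3.2%, and 0 for the STK19 mean, beside 0.00646%, where DESeq2 called 0 and 0 had an unadjusted p under 0.05. CSB_KO is 1 line, and its part in the differences cannot be told from a trait of that line. At 3 h against 0 h the CSB_KO change differed for CRY2 by -0.50 (adjusted p = 0.00476), and the mean STK19 change by 0.98 for PER2 (adjusted p = 7.86e-08) and 0.36 for CRY2 (adjusted p = 0.00839). At 20 h in DMSO against 0 h the CSB_KO differences were called as positive for 4 genes. These were 1.16 for PER1 (adjusted p = 5.16e-11), 0.90 for PER2 (adjusted p = 1.6e-07), 1.32 for CRY2 (adjusted p = 6.19e-15) and 1.41 for NR1D1 (adjusted p = 1.01e-09). The differences were called as negative for 3 of the 5 genes that were lower at 20 h in CSB_KO. These were -1.87 for CLOCK (adjusted p = 8.86e-16), -1.21 for CRY1 (adjusted p = 3.18e-19) and -1.34 for DBP (adjusted p = 2.66e-08). The other two, PER3 (0.39 ± 0.21, adjusted p = 0.0903) and NR1D2 (-0.11 ± 0.10, adjusted p = 0.354), did not pass. The mean STK19 differences had the same signs, with 0.84 for PER1 (adjusted p = 1.95e-08), 0.64 for CRY2 (adjusted p = 4.54e-07) and 0.87 for NR1D1 (adjusted p = 6.54e-06), and -1.08 for CLOCK (adjusted p = 2.63e-10) and -0.32 for CRY1 (adjusted p = 0.000132). For PER3, which fell in all 4 lines, the mean STK19 change was less negative than that in WT, by 0.44 (adjusted p = 0.0247).

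For ATRi against DMSO at 4 h, CRY2 differed between CSB_KO and WT by 0.42 (edgeR adjusted p = 0.0357), and the call was lost without any 1 of CSB_KO ATRi replicate 2, the 3 CSB_KO DMSO replicates, WT ATRi replicates 1 and 2, and WT DMSO replicates 1 and 3 (adjusted p = 0.051 to 0.129). At 20 h the effect in CSB_KO differed from that in WT by -0.45 for PER1 (adjusted p = 0.00393), -0.78 for PER2 (adjusted p = 2.25e-06) and -0.71 for NR1D1 (adjusted p = 0.000516). It differed the other way by 0.22 for CRY1 (adjusted p = 0.0224), 0.55 for CLOCK (adjusted p = 0.0048) and 0.82 for DBP (adjusted p = 0.000687). The CRY1 value did not pass without CSB_KO replicate 1 of ATRi or of DMSO (adjusted p = 0.118 and 0.0875). The mean STK19 effect differed from that in WT by -0.61 for PER1 (adjusted p = 1.8e-05), -0.32 for PER2 (adjusted p = 0.0247), -0.44 for PER3 (adjusted p = 0.0427) and -0.72 for NR1D1 (adjusted p = 0.000122), and by 0.26 for CRY1 (adjusted p = 0.00229) and 0.45 for CLOCK (adjusted p = 0.00447). The PER2 call was lost without STK19_KO1 DMSO replicate 1, WT ATRi replicate 2 or WT DMSO replicate 1 (adjusted p = 0.0553, 0.109 and 0.0635). The PER3 call was lost without any 1 of 12 of the 18 libraries compared (adjusted p = 0.0567 to 0.214): WT ATRi replicates 2 and 3, WT DMSO replicates 2 and 3, STK19_KO1 ATRi replicates 1 and 2, STK19_KO1 DMSO replicates 2 and 3, STK19_KO2 ATRi replicates 2 and 3, and STK19_KO2 DMSO replicates 1 and 2. The CRY2 difference of the STK19 mean at 3 h was lost without WT 0 h replicate 3 or WT 3 h replicate 1, and the PER3 difference at 20 h in DMSO without WT 0 h replicate 1 (adjusted p = 0.0507, 0.094 and 0.0595).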

How the results depend on the processing

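Of the 315 member values, 177 were called and 142 of these were called under every setting tried; 35 were lost and 30 others gained under at least 1 setting, and none changed sign past the threshold. Each of the 94 called values with an absolute log2 size of at least 0.6 was called under every setting. Calls lost and gained were 4 and 2 with a stricter filter, 10 and 1 with none, 4 and 7 with DESeq2, 5 and 4 with RLE size factors, 11 and 14 with only the libraries of the groups compared, and 5 and 11 without the 5 libraries that stood apart. With the replicate number as a block, 0 were lost and 7 gained. No comparison had all 3 correlations of same-numbered deviations above 0.1. In WT they were 0.256, 0.0656 and 0.095 for 3 h against 0 h, and 0.184, 0.0732 and 0.116 for 4 h DMSO against 0 h. Every WT library that stood apart was a replicate 1. Whether the numbers pair the samples cannot be decided from these values, since the limit of 0.1 was chosen and each group has only 3 libraries. The number of members higher in ATRi at 4 h, 1 in all, was 0 to 1 with a library left out and 2 without the 5 libraries. The number lower in a knockout at 0 h went from 3 to 1 with no filter, and the number higher from 7 to 4 to 7 with a library left out, with 4 without WT replicate 1. Over 2538 values with a library left out, 106 calls were lost and 35 gained; there the dispersion trend of the whole fit was kept. RLE size factors moved no member value by more than 0.0862 (log2). RLE and TMM are scalings of a like kind, and the TPM scale, which uses neither, gave other sizes. From 0 h to 20 h in DMSO, NR1D2 in CSB_KO went from 55.6 to 31.9 TPM. PER2 went from 4.44 to 12.5 TPM in CSB_KO and from 4.86 to 11.1 TPM in WT. The sizes of changes, and of differences between lines, thus depend on the scale, and changes in TPM were not tested.

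Counts over all genes moved by over 1.5 times in the comparisons with few calls. Without the 5 libraries ATRi at 4 h called 2119 genes in WT (411 with all), 1086 in CSB_KO (460) and 100 in STK19_KO2 (34), and the differences of this effect from WT 1182 genes for CSB_KO (495) and 70 for the STK19 mean (1). With only the libraries compared, ATRi at 4 h called 2, 1364, 20 and 16 genes in WT, CSB_KO, STK19_KO1 and STK19_KO2 (411, 460, 140 and 34), 3 h against 0 h called 5925 in WT (9653), and the differences from WT at 3 h 241 for CSB_KO (1513) and 1321 for the STK19 mean (4201). DESeq2 called 12 genes for the STK19 mean in ATRi at 4 h, 58.3% of them more positive. The depth limits DBP and PER3 most, the least counted members.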
